A study of Homo sapiens with 2 samples.

Results

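The genes described here carry a symbol of the CD series, CD followed by a number, the nomenclature under which surface molecules of leukocytes are catalogued. They were taken from the platform annotation of the array by symbol alone, leaving out CD274, CD276 and antisense genes, and the brightest probe set stood for each gene. The rule found 70 of the 14884 genes that the annotation named. Symbols in which a further digit follows the letters, such as CD99L2 and CD200R1, were kept. Most of the 70 encode surface proteins, but not all. CD2AP and CD2BP2 encode intracellular proteins that bind the tail of CD2, CD5L encodes a secreted protein, CD68 a mainly lysosomal glycoprotein, and CD99P1 is a pseudogene. Another 20 protein-coding genes of RefSeq fit the symbol rule, among them CD3D, CD3E, CD3G, CD40, CD55 and CD59, and were not analysed here.

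The cells were SNK6, an Epstein-Barr virus-positive line from a human natural killer (NK)/T-cell lymphoma, kept in medium with 10% serum and 500 U/ml interleukin-2. They received romidepsin, which inhibits class I histone deacetylases, together with sildenafil, a phosphodiesterase inhibitor (1 array), or romidepsin without sildenafil (1 array), each for 72 h. Both groups thus carried romidepsin, and no untreated sample was analysed here, so no value below describes the effect of romidepsin. SNK6 is a single cell line, no dose is given in the labels, and with 1 array per group no difference could be tested and no value has a replicate error. The values are log2 signals that ran from 0.79 to 12.97 with sildenafil and from 0.93 to 13.05 without it, and the number of arrays limits their precision.

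CD molecules fall into a few functional sets. Lymphocytes recognise other cells through receptor and ligand pairs, such as CD2 with CD58 and CD48, CD27 with CD70, or CD28 with CD80 and CD86. Tetraspanins organise membrane patches around integrins and immune receptors, and CD47 signals to phagocytes through the receptor SIRPA. Cells of the NK lineage usually carry CD2, CD7 and NCAM1 (CD56), while CD22 and CD79 mark B cells and CD14 and CD163 mark monocytes and macrophages.

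The brightest of the 70 members encoded a phagocytosis inhibitor and costimulatory ligands. CD47 had a log2 signal of 9.34 with sildenafil and 9.58 without it, CD70 of 9.17 and 9.20, and CD80 of 9.05 and 9.15 in the same order of treatments. CD2AP (8.34 with sildenafil and 8.42 without), CD86 (8.28 and 8.35), the leukocyte tetraspanin CD37 (8.16 and 8.26) and CD2 itself (8.10 and 8.10) followed. CD83, an activation antigen best known from dendritic cells, had 8.05 on each array, the hyaluronan receptor CD44 had 7.75 with sildenafil and 7.78 without, and CD48 had 7.75 and 7.66. These 10 genes lay between percentile 90.1 (CD48) and 98.7 (CD47) of the mean signals of all named genes. On each array taken alone, 9 of the 10 brightest members were shared, and the 20 brightest were the same genes. Probe sets differ in how strongly they bind their target, so this order describes array signal and not the number of transcripts.

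The members as a whole were spread over the range of the array much like other genes. Of the 70, 11 (15.7%) lay at or above the 90th percentile of named genes, 19 (27.1%) at or above the 75th and 32 (45.7%) at or above the 50th. A gene passed the signal filter when its brighter array was at 3.91 or above, which is the median over all probe sets and both arrays. No detection calls were used, so passing does not show that a gene is expressed. By that filter 46 members (65.7%) were kept and 24 were not, against 67.7% of all named genes. CD5L (4.01), CD300A (4.03) and CD8B (4.11) were the members just inside by their brighter array, and CD1A (3.89), CD34 (3.87) and CD14 (3.79) those just outside. CD300A was kept only through the array with sildenafil (4.03, against 3.86 without). The dimmest members were CD200R1L (1.89 with sildenafil and 1.57 without), which encodes a relative of the CD200 receptor, and the fatty acid scavenger receptor CD36 (1.85 and 1.72). Neighbours in the order of signal often lay close together. Of 69 steps from one member to the next, 49 were smaller than 0.14, the median absolute difference of a member between the arrays. The arrays differ in treatment, so 0.14 is no replicate error and cannot show which neighbours are separable.

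**Figure D1:**
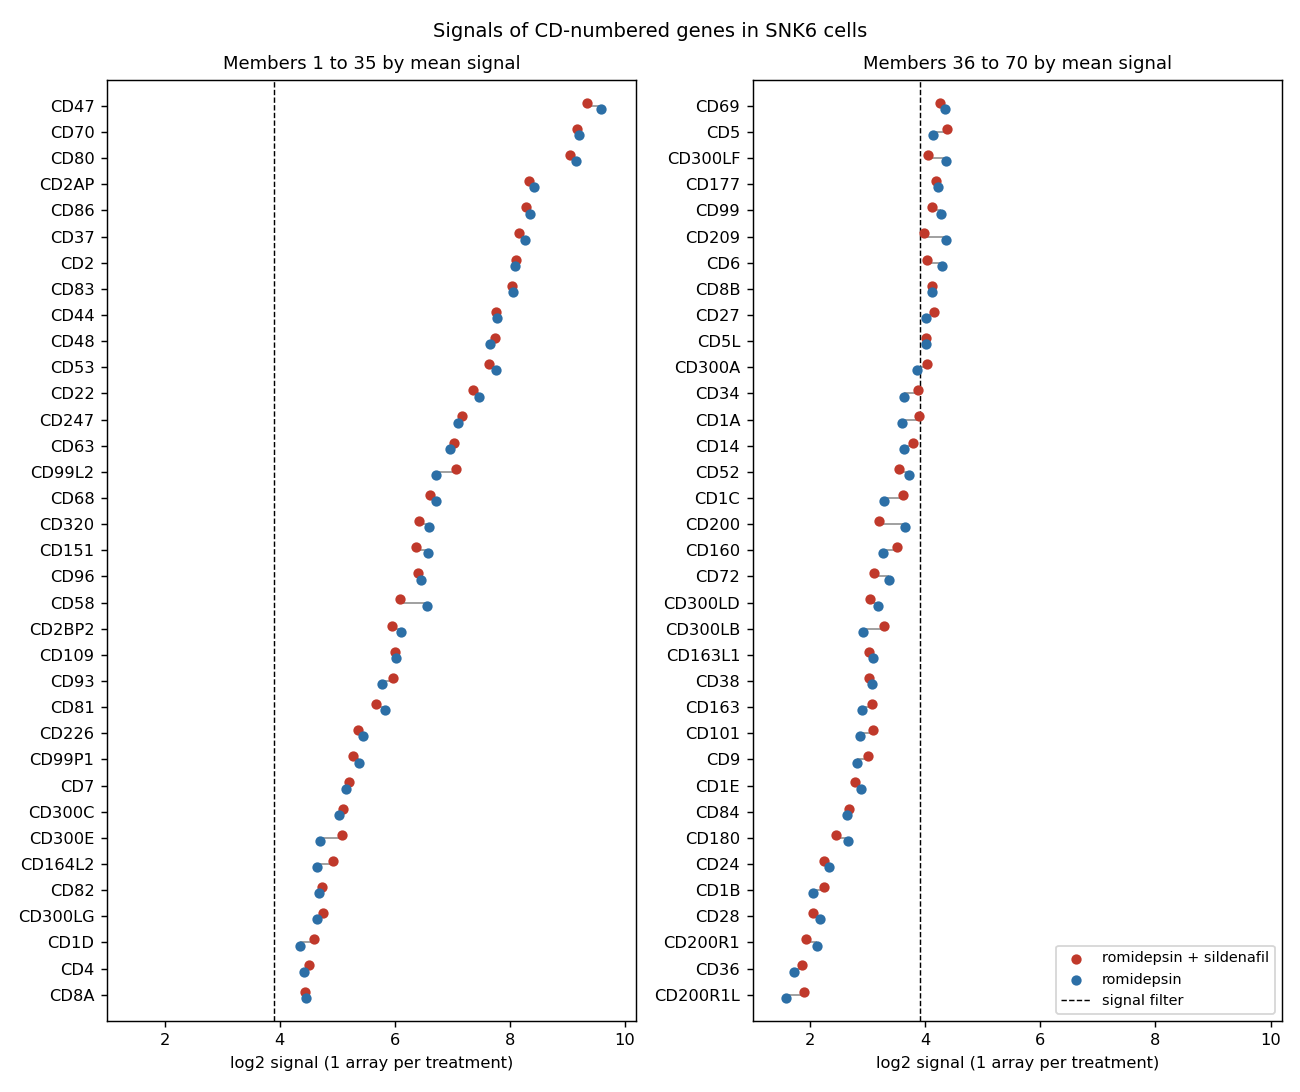
Log2 signal (horizontal axis) of each of the 70 CD-numbered genes on the array with romidepsin plus sildenafil (red) and on the array with romidepsin (blue), ordered by mean signal, with a dashed line at the signal filter of 3.91. The red and blue points of a gene lie close together relative to the span from CD47 at the top to CD200R1L at the bottom, and CD58 has the widest gap.

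The bright members differed in the CpG content of their promoters. RefSeq promoter windows of GRCh38.p14, 250 bases before to 50 after the gene start, matched 50 of the 70 members. Of the brighter members, CD70, CD37 and CD151 had no window. CpG dinucleotides were counted in them because lymphocyte-restricted genes often have promoters outside CpG islands, whereas broadly used genes often have promoters inside them. Of 19 bright members (mean signal of 6 or more) with a window, 10 held between 2 and 9 CpG and the other 9 held between 17 and 45. Among the dimmer members, CD9 (12 CpG) and CD200 (15) lay between these ranges, and the T cell coreceptor CD8A held 18. The CpG-poor 10 were CD2, CD22, CD48, CD53, CD68, CD80, CD83, CD86, CD96 and CD247, which are antigens of blood cells. The CpG-rich 9 were CD2AP, CD2BP2, CD44, CD47, CD58, CD63, CD99L2, CD109 and CD320, most of them known from many tissues. The windows of CD58 and its receptor CD2 are shown with those of CD47, the brightest member, and CD86 as an example of each kind, over the 200 bases before the gene start and 5′ to 3′, with each CpG in capitals.
CD47 (chr3:108091032-108091231, minus strand): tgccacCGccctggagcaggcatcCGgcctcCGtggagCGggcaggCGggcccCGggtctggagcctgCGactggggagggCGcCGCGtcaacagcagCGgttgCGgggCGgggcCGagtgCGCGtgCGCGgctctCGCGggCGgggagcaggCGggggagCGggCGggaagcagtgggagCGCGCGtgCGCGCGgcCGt
CD58 (chr1:116571027-116571226, minus strand): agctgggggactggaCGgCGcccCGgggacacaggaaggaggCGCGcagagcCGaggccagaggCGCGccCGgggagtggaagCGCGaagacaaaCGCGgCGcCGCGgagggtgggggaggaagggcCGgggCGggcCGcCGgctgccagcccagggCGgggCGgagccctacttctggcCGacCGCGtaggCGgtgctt
CD2 (chr1:116754230-116754429, plus strand): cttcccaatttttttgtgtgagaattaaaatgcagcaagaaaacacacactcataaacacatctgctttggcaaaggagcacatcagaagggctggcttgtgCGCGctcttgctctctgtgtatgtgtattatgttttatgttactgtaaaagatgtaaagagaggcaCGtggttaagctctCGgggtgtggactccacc
CD86 (chr3:122055162-122055361, plus strand): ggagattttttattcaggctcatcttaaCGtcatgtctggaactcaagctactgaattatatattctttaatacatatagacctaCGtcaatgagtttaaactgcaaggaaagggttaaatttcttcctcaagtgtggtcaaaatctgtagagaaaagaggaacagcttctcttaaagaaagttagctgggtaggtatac
In these stretches CD47 held 31 CpG and CD58 held 26, against 4 for CD2 and 2 for CD86.

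The GC box GGGCGG, searched on both strands and overlapping CpG by its own letters, was present in 9 of 9 CpG-rich bright members and in 0 of the 10 CpG-poor ones. This clean split did not extend to the members below a signal of 6. There 5 of 31 held a GC box, whereas CD8A (18 CpG), CD200 (15) and CD9 (12) lacked it despite more than 10 CpG. Of bright named genes, 77.0% of those with more than 10 CpG and 16.25% of those with 10 or fewer held it. It occurred in 28.0% of the 50 member windows, in 60.5% of the windows of named genes and in 44.6% of all 27305 RefSeq windows. Promoters with 10 or fewer CpG made up 52.6% of the 19 bright members, against 8.49% of the 3770 bright named genes with a window. Without regard to signal they made up 66.0% of the 50 members, against 26.3% of named genes. Among the 31 members below a signal of 6 the share was 74.2%, so such promoters are no trait of the bright members. Signal and CpG count were weakly related across the 50 members (Spearman 0.39, Pearson 0.37) and likewise across the 10749 named genes with a window (0.35 and 0.33). These are correlations across genes measured on the same arrays, and they describe the genes only. The bright CpG-poor members differed between the arrays by -0.13 to 0.08 (SD 0.07, n = 10 genes), and the CpG-rich ones by -0.46 to 0.35 (SD 0.23, n = 9 genes). Over all bright named genes the SD was 0.16 for CpG-poor promoters and 0.14 for the others, so the narrower spread of the CpG-poor members was not seen in that larger set. The split at 10 CpG was chosen after the counts were seen.

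**Figure D2:**
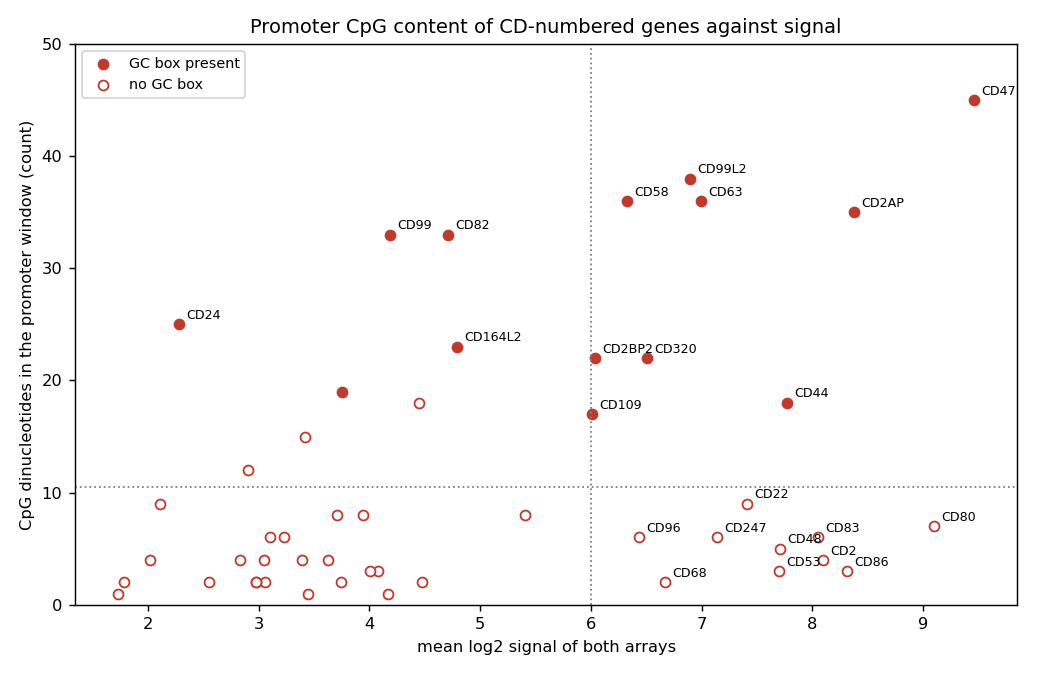
CpG count of the 300-base promoter window (vertical axis) against mean log2 signal (horizontal axis) for the 50 members with a window, filled where a GC box is present and open where none is, with dotted lines at a signal of 6 and between 10 and 11 CpG. To the right of the vertical line the genes form a CpG-rich set of 9, all filled, and a CpG-poor set of 10, all open.

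No CD-numbered gene differed by 1.5-fold between the arrays. Differences are given as log2 signal with sildenafil minus log2 signal in its absence, and 1.5-fold corresponds to 0.58. Among the 46 members past the filter 0 reached it in either direction, where 1.99% of the 10081 named genes past the filter did, so that the members' count lies near this background. Without the filter the count over all 70 was again 0, against 2.55% of the 14884 named genes. At a smaller size, a difference of at least 0.32, there were 4 of 46 members, against 12.7% of named genes. CD300E and CD99L2 were the 2 higher ones (6.69% of named genes) and CD58 and CD209 the 2 lower ones (6.04%). The differences of the 46 ran from -0.46 (CD58) to 0.38 (CD300E), with a median of -0.03, and those of all named genes past the filter had a median of -0.01. In 22 of the 46 (47.8%) the difference was under 0.1 in size, against 43.1% of named genes.

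The count of members in each direction depended on the scaling of the arrays. In the deposited values 17 members past the filter were higher with sildenafil and 29 lower (63.0%), against 52.4% of named genes past the filter. The counts were 16 higher and 30 lower after median centring, 22 and 24 after quantile normalization, and 21 and 25 after lowess centring of the differences on signal. The shares of members and of named genes that were lower were 65.2% and 59.5% after median centring. They were 52.2% and 44.2% after quantile normalization, and 54.3% and 47.9% after lowess centring. Of 22 members with a mean signal of 6 or more, 17 (77.3%) were lower in the deposited values, against 60.6% of the 4559 named genes in that range. The shares lower were 81.8% of these members and 69.7% of named genes after median centring, 54.5% and 43.3% after quantile normalization, and 59.1% and 47.1% after lowess centring. Between the filter and 6, 12 of 24 members were lower in the deposited values and under each of these settings. Of named genes in that range, 45.9% were lower in the deposited values. CD2, CD44, CD70, CD83, CD96 and CD109, all within 0.05 of 0, changed sign in at least 1 scaling. CD58 stayed between -0.49 and -0.41, CD47 between -0.27 and -0.18 and CD99L2 between 0.32 and 0.41 in the deposited values and 3 other scalings. The arrays were read from bulk RNA, in which fewer cells carrying an antigen and less RNA per cell cannot be told apart.

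**Figure D3:**
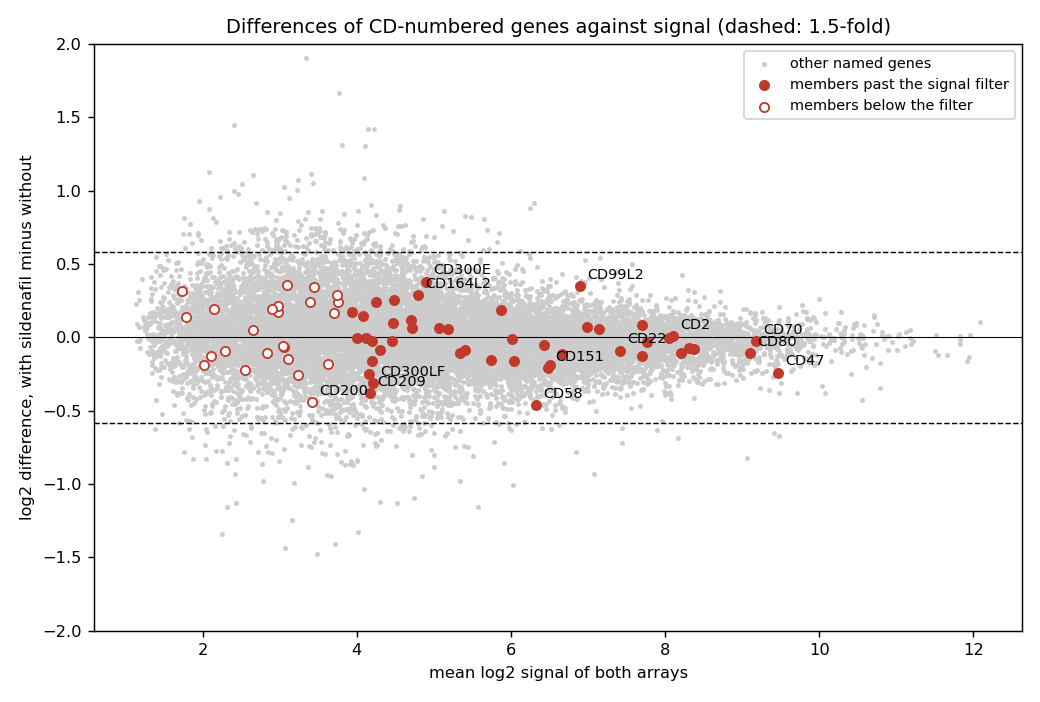
Log2 difference, with sildenafil minus without (vertical axis), against mean log2 signal (horizontal axis) for the 70 members (red, filled past the filter and open below it) over all named genes (grey), with dashed lines at 1.5-fold. All members lie between the dashed lines, and the grey cloud narrows as signal increases.

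CD58, the ligand through which target and antigen-presenting cells bind CD2, differed most of the members past the filter. Its signal was 6.09 with sildenafil and 6.56 without, a difference of -0.46 or 1.38-fold lower. The SD of differences among named genes of like signal, taken in 10 equal groups, was 0.17, so CD58 lay beyond 2 of these SDs. Only CD99L2 and CD47 were also beyond 2 such SDs, 3 of 46 members, where 5.4% of named genes were, all in the deposited values. CD99L2, a relative of the adhesion molecule CD99, had 7.07 with sildenafil and 6.72 without (0.35, or 1.28-fold higher). CD47 differed by -0.24 among bright genes whose SD was 0.12, and by -0.18 after quantile normalization and -0.19 after lowess centring, within 2 of these SDs. Each of the 3 rests on 1 probe set.

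CD2 and other recognition receptors of NK and T cells stand in the same list as CD58. Since CD58 was picked above for the largest difference, those past the filter differed less by that choice alone. CD2 differed by 0.01 and CD48, its other ligand, by 0.08. CD96 (6.41 with sildenafil and 6.46 without) and CD226 (5.37 and 5.45), which compete for ligands of the poliovirus receptor family on target cells, differed by -0.05 and -0.09. CD7, an early antigen of T and NK cells, had 5.21 and 5.15. CD5 (4.37 with sildenafil and 4.13 without) and CD6 (4.03 and 4.28), related scavenger receptor family members of T cells that lie next to each other on chromosome 11, differed in opposite directions by 0.24 and -0.25. Both lay near the filter, where the SD of differences was 0.26. CD69, an early activation antigen, had 4.25 and 4.34. Of 18 named genes listed as NK and T cell adhesion, activation and cytotoxicity receptors, 10 were past the filter. Of these 10, 5 were higher and 5 lower (6 and 4 after quantile normalization), with a median of -0.02 and a range from -0.46 (CD58) to 0.24 (CD5). Among all named genes past the filter 52.4% were lower in the deposited values. The other 8 listed genes were below the filter. They include CD52, the target of alemtuzumab (3.54 with sildenafil and 3.72 without), the HVEM receptor CD160 (3.51 and 3.27), and the inhibitory ligand CD200, which had 3.20 with sildenafil and 3.64 without (-0.44). CD101, CD84, CD28, CD200R1 and CD200R1L had mean signals between 1.73 and 2.97.

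CD247 was the one chain of the T cell receptor complex with a value here. This zeta chain, the signalling chain that T cell receptors share with several NK receptors, had 7.17 with sildenafil and 7.11 without. The coreceptors lay near the filter, CD4 with 4.52 and 4.42, CD8A with 4.44 and 4.46, and CD8B with 4.11 on each array. CD8B has a near-identical copy, CD8B2, whose RNA could add to its signal. The 4 genes differed by -0.02 to 0.10, with a median of 0.03.

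The costimulatory ligands CD70, CD80 and CD86 were bright while their receptors CD27 and CD28 were dim. Of 7 listed genes of TNF family and B7 costimulation, only these 5 were named. CD70, CD80 and CD86 had mean signals of 9.19, 9.10 and 8.31. CD27, the receptor of CD70, had 4.15 with sildenafil and 4.01 without, and CD28, the receptor of CD80 and CD86, had 2.04 and 2.17. The 3 ligands differed by -0.03 (CD70), -0.11 (CD80) and -0.07 (CD86) between the arrays, each within 1 SD of named genes of like signal, and the sign of CD70 turned with quantile and lowess scaling. Signals of different probe sets are not calibrated against each other, so the contrast between ligand and receptor is one of array signal.

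The tetraspanins, all 7 of which were named, spanned the range from the leukocyte-restricted CD37 to the dim CD9. CD53, also restricted to leukocytes, had 7.63 with sildenafil and 7.76 without, the lysosomal CD63 had 7.03 and 6.96, and CD151, which binds integrins, had 6.38 and 6.59. CD81, part of the B cell coreceptor and an entry factor of hepatitis C virus, had 5.67 and 5.82, and CD82 had 4.74 and 4.68. CD9 lay below the filter, with a mean of 2.90. Of the 6 past it, 4 were lower and 2 higher, with a median of -0.12 (-0.06 after quantile normalization, with the same counts), and CD151 differed most (-0.21). In the signal groups of named genes where these 6 lie, between 40.6% (the group of CD82) and 61.6% (that of CD63) were lower in the deposited values.

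Antigens of other blood lineages ranged from bright to dim. Of the 9 named myeloid antigens and scavenger receptors 5 were past the filter, and CD83, described above, was the brightest of them (mean 8.05, percentile 92.8). CD22, an inhibitory sialic acid-binding receptor of B cells, had 7.37 with sildenafil and 7.46 without, at percentile 87.5 of named genes. The other B cell antigens among the members, CD72, CD180 and CD24, had mean signals of 3.23, 2.55 and 2.28, and CD24 has several pseudogene copies. CD68 had 6.61 and 6.72, whereas the macrophage antigens CD163 and CD163L1 and the monocyte antigen CD14 lay below the filter, with CD14 at 3.79 with sildenafil and 3.62 without. CD93, a receptor of endothelial and myeloid cells, had 5.97 and 5.78. CD209, the dendritic cell lectin DC-SIGN, had 3.98 with sildenafil and 4.36 without (-0.38, or 1.30-fold lower), and it shifted by 10 places in the order of members between the arrays, the largest shift of any. The neutrophil antigen CD177 had 4.19 and 4.21. Its second probe set had 3.78 and 3.51, a difference of 0.26 against -0.03 for the brighter one.

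The families that lie in gene clusters included some of the higher members. CD300 genes encode paired activating and inhibitory receptors of myeloid cells, clustered on chromosome 17 apart from CD300LG, and 7 were named. CD300E had 5.08 with sildenafil and 4.70 without (0.38, or 1.30-fold higher), whereas CD300LF had 4.05 and 4.36 (-0.31). CD300C (5.09 and 5.03), CD300LG (4.76 and 4.64) and CD300A differed by 0.06 to 0.17. Of the 5 past the filter 4 were higher and 1 lower, but CD300A passed only on the array where it was higher, and in the 4 dimmest of 10 equal signal groups of named genes, where these genes lie, between 40.6% and 48.7% were lower. CD300LB and CD300LD lay below it, at 0.36 and -0.15. The CD1 genes, a family of lipid antigen presentation whose members lie side by side on chromosome 1, were all 5 named. CD1D, which presents to invariant NKT cells, was the brightest, with 4.60 with sildenafil and 4.35 without (0.25). CD1A, CD1B, CD1C and CD1E lay below the filter and differed by 0.29, 0.19, 0.34 and -0.11. The SD of differences was 0.34 in the dimmest of the 10 groups past the filter. Genes within either family resemble each other in sequence, so RNA of one may add to the signal of another.

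Adhesion and transport antigens of many tissues completed the set. CD320, the receptor for the vitamin B12 carrier transcobalamin, had 6.42 with sildenafil and 6.60 without (-0.19). CD164L2, related by name to the sialomucin CD164, had 4.93 and 4.65 (0.29, or 1.22-fold higher). CD99 had 4.11 and 4.27, and its pseudogene CD99P1 had 5.28 and 5.39, so the signals of this pair may include each other's RNA. The stem and endothelial cell antigen CD34 had 3.87 and 3.63, and CD38, an enzyme that consumes NAD, had 3.02 and 3.08. CD109, a membrane-anchored protein of the alpha-2-macroglobulin family, had 6.01 and 6.02 by its bright probe set and 3.64 and 3.44 by its second. CD2BP2 had 5.96 and 6.12, and CD5L 4.0 on each array.

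**Figure D4:**
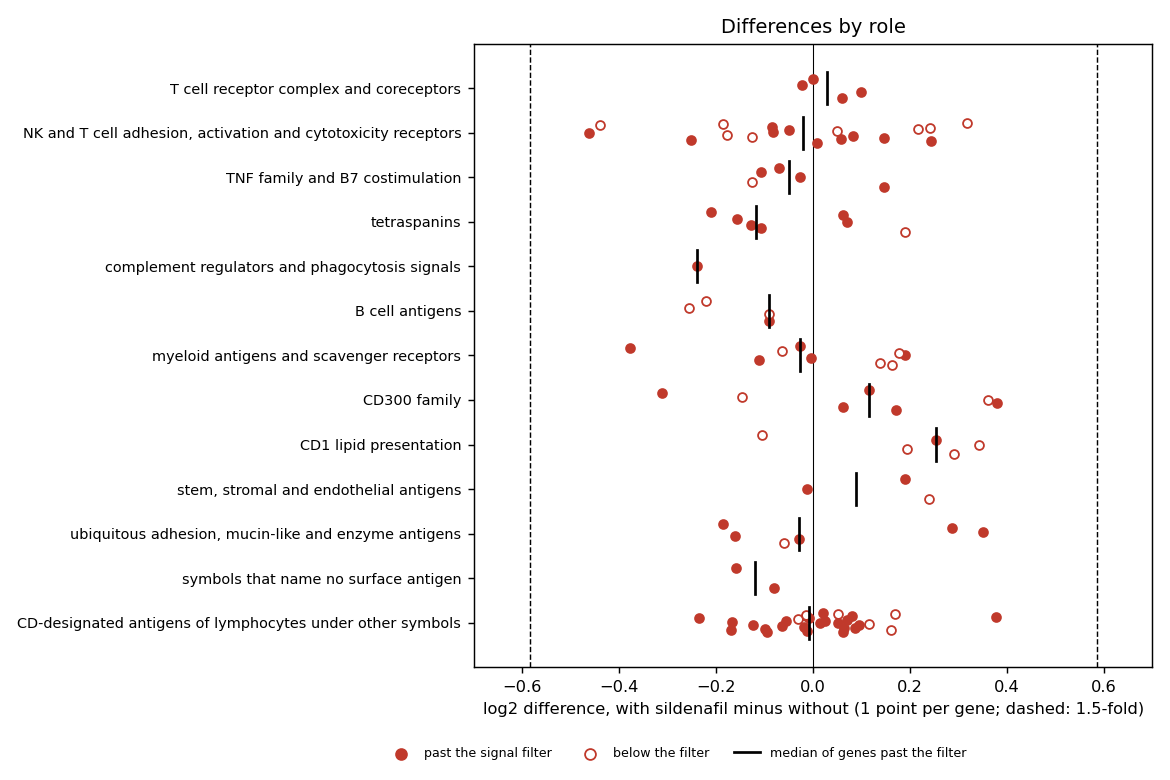
Log2 difference, with sildenafil minus without (horizontal axis), of each named gene in 13 lists of surface antigens and related symbols (rows), filled past the signal filter and open below it, with a black bar at the median of the filled points and dashed lines at 1.5-fold. No gene reaches a dashed line, and the list medians lie between -0.24 (CD47 alone) and 0.25 (CD1D alone). Some genes stand in more than 1 list.

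Many antigens have CD numbers but other gene symbols. Of 56 such genes of lymphocytes, 29 were named and 23 were past the filter. Of these 23, 11 were higher and 12 lower in the deposited values (14 and 9 after quantile normalization), with a median of -0.01. One of the higher genes, SLAMF6 (3.95 with sildenafil and 3.88 without), passed only on the array where it was higher. The share lower in the deposited values was 52.2%, against 52.4% of named genes past the filter. At 1.5-fold there were 0 of 23, near the 1.99% of named genes past the filter. The brightest were the chemokine receptors CCR7 (10.52 with sildenafil and 10.44 without), CCR4 (10.47 and 10.41) and CXCR4 (10.23 and 10.33), then the peptidase DPP4 (9.79 and 9.76), BSG (8.76 and 8.67), which encodes basigin, and the interleukin-7 receptor IL7R (8.48 and 8.49). CCR7, CCR4, CXCR4 and DPP4 were brighter than any member. NCR2, an activating NK receptor, differed most of those past the filter (5.16 with sildenafil and 4.79 without), where the SD of differences among named genes of like signal was 0.24. After NCR2 came, among those past the filter, the SLAM family gene LY9 (4.39 and 4.63), the sialomucin SPN (6.52 and 6.69), LAMP2 (7.67 and 7.84) and ICAM3 (4.70 and 4.82).

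Of 12 listed marker genes of NK and T lymphoma 7 were named and 6 were past the filter, which 67.7% of all named genes passed. NCAM1 had 6.54 with sildenafil and 6.63 without, perforin (PRF1) 8.81 and 8.83, and NKG7 8.23 and 8.50 (-0.27). TBX21 differed most of the 7, with 5.09 with sildenafil and 4.62 without (0.47, or 1.39-fold higher). The SD of differences among named genes of like signal was 0.24, so TBX21 lay within 2 of these SDs. EOMES was below the filter, with 2.90 and 3.21 (-0.31), and CD2 and CD7 are described above. Of 8 B cell markers 4 were named, and all 4 were past the filter, between 4.13 and 7.37 with sildenafil and between 4.18 and 7.46 without, CD22 being the brightest of them and PAX5 at 5.05 and 5.23. The 7 named monocyte and macrophage markers, 4 of them past the filter, lay between 2.24 and 6.61 with sildenafil and between 2.17 and 6.72 without. Of the 6 named fibroblast, epithelial and endothelial markers 3 were past it. These 6 lay between 3.18 and 7.38 with sildenafil and between 2.85 and 7.04 without, the brightest being KRT18. Summed over each list, the log2 signals were 44.88 with sildenafil and 45.04 without for the NK and T lymphoma markers and 21.69 and 22.05 for the B cell markers. They were 28.27 and 28.04 for the monocyte markers and 26.79 and 26.40 for the last list. The lists differ in size and most hold genes below the filter, so the sums are not comparable between lists and do not measure cell content.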

How the data were processed

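Whole-transcript cDNA made from total RNA of SNK6 cells was labelled with biotin for the array, per the labels' protocols. The deposited table holds log2 signals for 53617 probe sets on 2 arrays. Their base is unstated and was read as 2, since the maximum of 13.05 exceeds what a 16-bit scanner gives in natural logs (11.1). The labels do not state summarisation or normalization. The sorted columns differ by at most 0.15, so a shift shared by most transcripts would not be seen.

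Samples were assigned from their titles, the abbreviated second drug being read as sildenafil. Platform annotation named 16098 probe sets, and all 70 member symbols matched RefSeq. Promoters were RefSeq windows. The spread of differences came from 10 equal groups of named genes by signal. Named were the brightest and most different members overall and per list, and the remaining members to account for all. Members and lists were chosen with earlier results of these data known. Alternatives changed filter, normalization (median, quantile, lowess with span 0.3), probe set handling, threshold and membership. Scripts were tested on simulated data. The software was matplotlib 3.10.9, statsmodels 0.14.6, scipy 1.17.1, pandas 2.3.3, numpy 2.4.6 and Python 3.11.15.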

Additional observations from a re-analysis of the deposited data

How the results depend on the processing

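The count of CD genes at 1.5-fold was 0 under the 3 normalizations, both ways of handling probe sets, the 3 other filters, a 2-fold threshold and both narrower readings of the symbol rule, of which the reading with letters alone after the digits was chosen after seeing the data. In the deposited values 1.99% of named genes past the filter, and 2.55% without the filter, reached 1.5-fold, so a count of 0 members lies near this background. The share of named genes at 1.5-fold under the other settings is not given here. A threshold of 0.32 on the log2 scale gave 4 of 46 members, against 12.7% of named genes past the filter. Without the filter 70 genes entered. The direction of single members turned with quantile normalization in 5 of 70, lowess centring in 4, the mean of probe sets in 2 and median centring in 1, and no difference moved by more than 0.14. The shares of named genes that turned are not given here, so these counts are no trait of the members. The median of the members past the filter stayed between -0.06 and -0.02 in the alternatives, and 32 genes were left by the strictest filter. No paired analysis was possible because each group has 1 array. No detection calls were used, so signal over background is unknown.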
